A study of Mus musculus with 8 samples.

Results

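Microglia of A20 conditional knockout (A20 cKO) mice were compared between day 2 and day 1 after sciatic nerve transection. The comparison used 2 of the 8 single-cell RNA-Seq libraries of the series. A barcode was taken as a cell if it had 1000 or more unique molecular identifiers (UMIs, each standing for 1 captured RNA molecule), 500 or more genes, and no more than 10% of its UMIs from mitochondrial genes. By this rule 667 of 700 barcodes on day 2 and 886 of 930 on day 1 were cells. Together these were 1553 of the 14626 cells kept from all libraries.

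A20, the protein encoded by Tnfaip3, is a ubiquitin-editing enzyme that restrains NF-kB signaling downstream of receptors for tumor necrosis factor, interleukin 1 and microbial products. Microglia, which are macrophages that live in the brain and spinal cord, divide in the spinal cord after a peripheral nerve is cut. A dividing cell first copies its DNA in S phase, for which MCM helicases and nucleotides are supplied early, and then assembles cyclin B with Cdk1, condenses its chromosomes, builds a spindle and divides in G2 and M phase. The mRNAs for the mitotic program accumulate late in the cycle.

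Lumbar microglia of both libraries came from C57BL/6 mice with the genotype Cx3cr1-yfp-creER/+; Tnfaip3 fl/fl, in which tamoxifen-inducible Cre and YFP are made from 1 Cx3cr1 allele. Cre was therefore active in other Cx3cr1-expressing cells too, and 1 working copy of Cx3cr1 remained in all animals of the series. The sciatic nerves of both sides were cut, the lumbar cords of several animals were pooled for each library, and YFP (+) cells were sorted with doublets gated out. The control animals, used here only for values set beside the A20 cKO ones, carried the same Cx3cr1 allele and 2 wild-type Tnfaip3 alleles. With 1 library a side there was no replicate and no test between days. Every interval below is at 95% and covers counting error only, not the variation between animals or preparations.

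The 2 libraries were of nearly equal depth, 3028418 UMIs in kept cells on day 1 and 3033873 on day 2, but the median cell held 3107.5 UMIs on day 1 and 4128 on day 2. UMIs of Tmem119, a microglial membrane protein, were found in 98.2% and 97.3% of the cells, and those of Csf1r, the receptor that microglia need to survive, in 96.7% and 96.3%. Before filtering, 44 barcodes occurred in both libraries, 38 of them deeper on day 1, and the deeper copy had a median of 5.54 times the UMIs. These were 6.29% of the barcodes of the smaller library, the largest such share of any pair in the series. The next was 3.98%, for control day 3 and A20 cKO day 1. Among kept cells, 62 on day 1 and 33 on day 2 had a barcode found in another of the 8 libraries, and 10 and 6 of these belonged to the G2/M class defined below. The summed mitotic lists, the leading mitotic genes and the main class values are given with and without them. The summed level of 3 ribosomal-RNA-like genes (Gm26917, Gm42418 and AY036118, picked after their values were seen) was 3590 CPM on day 1 and 1751 CPM on day 2 (CPM, UMIs of a gene scaled to a common library total), and its part in the other differences was not tested.

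The targeted gene, Tnfaip3 (chr10:19000910-19015657, GRCm38), had 42.3 CPM on day 1 (35.3 to 50.2) and 52.4 CPM on day 2 (44.6 to 61.2). The log2 ratio was 0.31 with an interval of -0.03 to 0.66, so with all kept cells a difference was not detectable at this depth. Without barcodes found in another library the ratio was 0.38 (0.01 to 0.75), with an interval just above 0. In the control libraries the level was 25.3 CPM on day 1 and 6.83 on day 2, below both A20 cKO libraries. Because reads were taken next to the 3′ end of the RNA, which need not lie in the deleted part, these levels do not check the deletion.

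In all, 7190 genes had at least 100 UMIs in the 2 libraries together and were compared. A gene was called higher or lower where its CPM differed at least 1.5-fold and the exact interval of the ratio excluded no change. By this rule 237 genes (3.3%) were higher and 417 (5.8%) lower on day 2. These shares are the background for the counts of called list members below. The higher calls were the larger ones, since at 2-fold 90 genes were higher and 32 lower. The split depended on scaling: with median-of-ratios size factors, which moved every log2 ratio up by 0.09, 335 genes were higher and 250 lower. Lower calls close to the 1.5-fold limit, such as P2ry12, Cx3cr1, Nop58, Il1a and Ier2 below, fell short of it with these factors. Between the control libraries of the same days 855 of 9982 genes (8.57%) were called higher and 443 (4.44%) lower. At a mean level of 50 CPM or more, predicted and ribosomal genes left out, the 12 with the highest log2 ratios were Mki67, Casc5, Il12b, Hist1h1b, Hist1h2ae, Top2a, Hist1h2ap, Plac8, Cxcl13, Smc4, Cks1b and H2afx. Of these, 9 act in mitosis, cell cycle control or chromatin, and Il12b, Plac8 and Cxcl13 do not. Among the 12 lowest were Fcrls, Csmd3, Lrba, Slc2a5, Myc, Ecscr, Eef1e1, Ccl12, Numb, Nfam1 and Nrros.

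**Figure D1:**
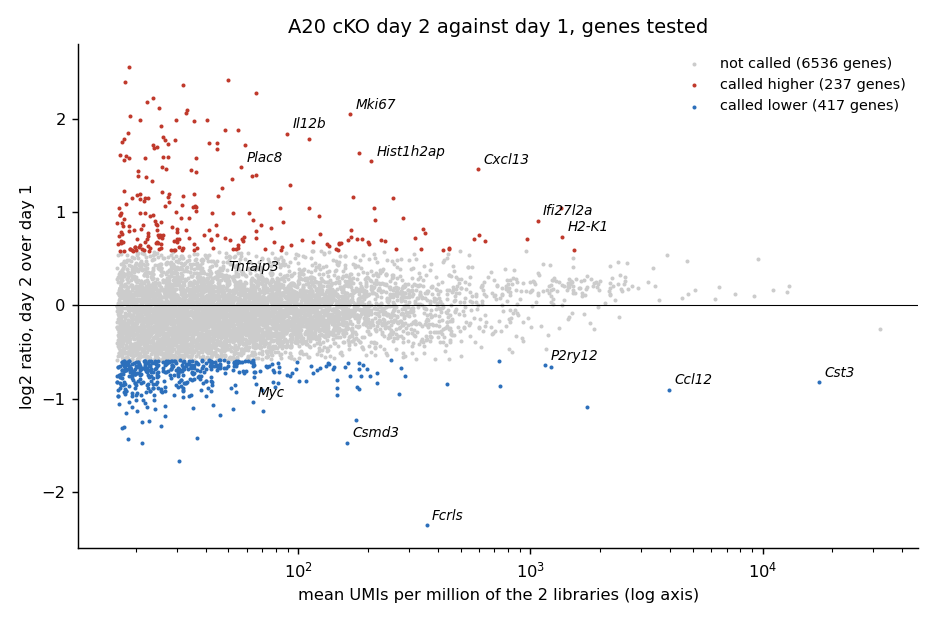
Log2 ratio of CPM, A20 cKO day 2 over day 1 (vertical axis), against the mean level of the 2 libraries in CPM (log axis), for the 7190 genes compared; 1 point is 1 gene. Mki67 at 2.05 and Fcrls at -2.36 stand out among genes of higher level, and the 237 genes called higher reach larger ratios than most of the 417 called lower.

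The core G2/M genes, 18 genes of the cyclin B-Cdk1 kinase, the spindle and the kinetochore, rose together. Mki67, the Ki-67 protein that coats mitotic chromosomes, went from 64.7 CPM (56.0 to 74.4) on day 1 to 269 CPM (251 to 288) on day 2, a 4.15-fold difference. Top2a, the topoisomerase that untangles sister chromatids, went from 89.2 CPM (78.8 to 100.4) to 277 CPM (259 to 297). Cenpe, a kinetochore motor, had the largest ratio of the core genes above a mean level of 20 CPM, from 15.5 CPM (11.4 to 20.6) to 83.7 CPM (73.7 to 94.7), or 5.35-fold. The intervals of the 2 days did not overlap for any of these. Cdk1, the kinase that drives entry into mitosis, went from 13.5 CPM (9.71 to 18.4) to 41.2 CPM (34.3 to 49.1). Of the 18, 16 reached the UMI minimum and all 16 were called higher, with a median log2 ratio of 1.94, where 3.3% of all genes compared were called higher and the median of all genes was -0.09. The other 2 were below the minimum and also had ratios above 0. Summed over all 18 with no minimum, the genes took 358 CPM on day 1 and 1323 CPM on day 2, a log2 ratio of 1.89 (1.79 to 1.98). In the control libraries the same sum was 27.7 CPM on day 1 and 945 CPM on day 2.

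The day 1 level of these genes came from few cells. A single barcode held 12.8% of the Mki67 UMIs, 19.1% of the Cenpe UMIs and 28.9% of the UMIs of Hmmr, a spindle protein, on day 1, but 3.79%, 4.72% and 4.88% on day 2. Without the barcodes found in another library, the summed day 1 level was 217 CPM and the day 2 level 1329 CPM, and the log2 ratio was 2.61 (2.49 to 2.74). The log2 ratio of Mki67 was then 2.79 (39.3 and 273 CPM), against 2.05 with these barcodes, and that of Top2a 2.37 (54.0 and 280 CPM), against 1.63. Those of Cenpe, Cdk1 and Hmmr were 3.01, 2.14 and 3.34, against 2.42, 1.59 and 2.09. The day 1 levels were lower and the day 2 levels little changed in each of these genes. Leaving these barcodes out was uneven between the days. On day 1, 16.1% of the cells left out were in the G2/M class before thinning, against 2.79% of the others. On day 2 the shares were 18.2% and 15.8%. The cells left out had a median of 4454.5 UMIs on day 1 and 1435 on day 2. The larger ratios are therefore not a separate measure of the rise.

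**Figure D2:**
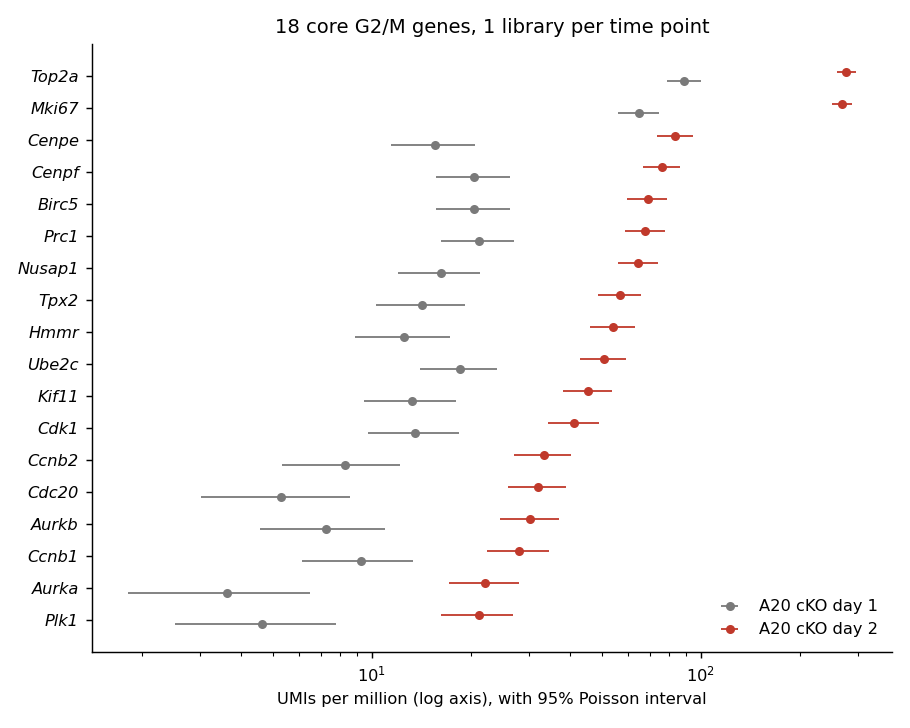
CPM (log axis) of the 18 core G2/M genes in the A20 cKO libraries of day 1 (grey) and day 2 (red); bars are 95% Poisson intervals of the UMI count. Every gene has a higher point on day 2, and the intervals of the 2 days do not overlap for any gene.

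The promoters of the core genes were read for the cell cycle homology region (CHR), the element through which the DREAM and MuvB complexes act on late cell cycle genes, here the letters TTTGAA on either strand. RefSeq windows from 250 bases before to 50 bases after the start (GRCm38.p6) were found for 16 of the 18 genes, with 17 windows in all. Of these, 13 (76.5%) held a CHR, against 17.9% of all 32851 windows, and 15 (88.2%) held CCAAT on either strand, against 37.4%. Of the 12 core S genes, 10 matched, and 2 of their 11 windows (18.2%) held a CHR. An E2F site, any of TTTGGCGC, TTTCGCGC, TTTGCCGC and TTTCCCGC on either strand, was found in 5 (45.5%) of the core S windows and in 1 (5.88%) of the core G2/M windows, against 2.26% of all windows. A match is a description of the letters and not evidence of binding. The windows of the core genes with a CHR, 1 window and the largest log2 ratios are printed to show where the element lies. They are Hmmr (chr11:40733388-40733687), Mki67 (chr7:135716330-135716629), Ccnb2 (chr9:70421505-70421804) and Cenpf (chr1:189688037-189688336), all on the minus strand and written 5′ to 3′ with the CHR in capitals.
Hmmr: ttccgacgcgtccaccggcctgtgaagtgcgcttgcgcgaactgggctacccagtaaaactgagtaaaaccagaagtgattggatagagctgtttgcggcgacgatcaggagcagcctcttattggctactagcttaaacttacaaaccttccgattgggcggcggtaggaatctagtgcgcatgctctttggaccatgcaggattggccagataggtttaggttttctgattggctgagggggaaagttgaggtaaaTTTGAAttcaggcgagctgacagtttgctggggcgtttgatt
Mki67: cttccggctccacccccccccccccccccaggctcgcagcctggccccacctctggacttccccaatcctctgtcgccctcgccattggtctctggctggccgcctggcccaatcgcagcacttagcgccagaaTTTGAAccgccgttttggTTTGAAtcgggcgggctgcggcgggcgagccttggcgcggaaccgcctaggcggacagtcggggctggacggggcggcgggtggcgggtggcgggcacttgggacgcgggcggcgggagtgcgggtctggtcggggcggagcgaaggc
Ccnb2: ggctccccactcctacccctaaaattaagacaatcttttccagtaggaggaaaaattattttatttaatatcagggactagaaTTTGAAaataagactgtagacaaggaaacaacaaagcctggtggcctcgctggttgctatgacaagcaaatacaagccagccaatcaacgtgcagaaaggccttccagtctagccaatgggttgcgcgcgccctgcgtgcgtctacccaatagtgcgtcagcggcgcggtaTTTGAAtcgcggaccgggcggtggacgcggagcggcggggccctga
Cenpf: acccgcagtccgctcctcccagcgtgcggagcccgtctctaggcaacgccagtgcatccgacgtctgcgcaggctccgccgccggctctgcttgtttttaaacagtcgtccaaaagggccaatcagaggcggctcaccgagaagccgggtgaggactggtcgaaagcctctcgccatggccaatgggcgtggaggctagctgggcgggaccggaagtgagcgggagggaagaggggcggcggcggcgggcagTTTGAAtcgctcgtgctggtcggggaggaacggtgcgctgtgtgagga
Mki67 and Ccnb2 hold 2 copies each, and Hmmr and Cenpf 1 each.

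Cells were next counted by how many of the core genes they held. To set cells of unequal depth side by side, each was thinned at random to 2000 UMIs, which left out 56 cells on day 1 and 41 on day 2. A cell with UMIs of at least 3 of the 18 genes was put in the G2/M class. The class held 22 of 830 cells on day 1, or 2.65% (1.67% to 3.99%, Clopper-Pearson), and 78 of 626 cells on day 2, or 12.5% (9.98% to 15.3%). The difference was 9.81 percentage points (7.10 to 12.8, Newcombe). Without thinning the shares were 3.72% and 15.9%, and without barcodes found in another library the thinned difference was 10.5 points (7.76 to 13.5). The naive A20 cKO library had 2.72% of cells in the class and the day 3 library 7.43%, so that day 2 was the highest of the 4, and the difference of day 1 from naive was -0.07 points (-1.20 to 1.37). In the control libraries the share was 0.093% on day 1 and 14.7% on day 2.

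Cells with many of the core genes were more frequent on day 2. Cells with 5 to 8 core genes were 9 (1.08%) on day 1 and 39 (6.23%) on day 2, and cells with 9 or more were 7 (0.843%) and 22 (3.51%). Cells at the edge of the class, with 2 core genes, were 0.964% and 3.51%, and those with a single core gene 8.43% and 18.7%. A single UMI can come from free RNA of other cells in the droplet. Mbp, the myelin protein gene of oligodendrocytes, had a UMI in 19.8% of thinned cells on day 1 and 26.4% on day 2, and in 2.64% and 2.87% in the control libraries. The cells with 1 core gene are therefore given as values only, and so are the shares of cells with a UMI of Myc, Il12b, Plac8 and Cxcl13 below, which lie under those of Mbp. Of the 106 class cells on day 2 before thinning, 105 had UMIs of at least 3 of 5 microglial markers, P2ry12, Tmem119, Csf1r and Cx3cr1 among them, as did 33 of 33 on day 1. These cells were deep, with a median of 6673.5 UMIs on day 2 and 4907 on day 1, against 3773.5 and 2961 in cells outside the cycling classes.

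**Figure D3:**
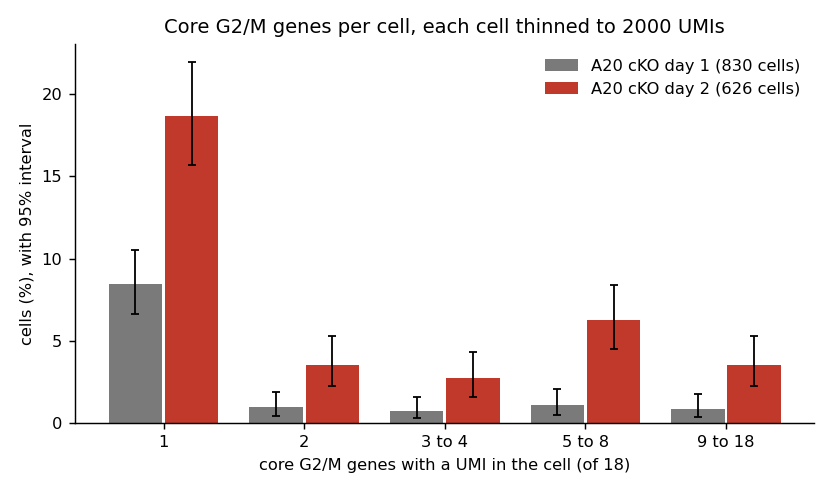
Percentage of cells (vertical axis) with UMIs of 1, 2, 3 to 4, 5 to 8, or 9 to 18 of the core G2/M genes after thinning to 2000 UMIs, in A20 cKO day 1 (grey, 830 cells) and day 2 (red, 626 cells); bars carry 95% Clopper-Pearson intervals. The day 2 bars are the taller ones in every bin, with 6.23% against 1.08% of cells at 5 to 8 genes.

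The S class was made of cells with at least 3 of 12 core S genes and fewer than 3 core G2/M genes. It held 37 cells (4.46%, 3.16% to 6.09%) on day 1 and 19 (3.04%, 1.84% to 4.70%) on day 2, a difference of -1.42 points (-3.38 to 0.63). The difference depended on how the class was set. It was -6.31 points (-9.36 to -3.16) with at least 2 core S genes and 1.38 points (0.28 to 2.78) when cells were thinned to 1000 UMIs, both with intervals that left out 0 and in opposite directions. It was 0.87 points (-0.45 to 2.42) with at least 4 genes and 0.49 points (-1.41 to 2.53) without barcodes found in another library. Cells of the G2/M class that also held 3 or more core S genes were 0.964% on day 1 and 3.99% on day 2. Of the 12 core S genes, 10 were compared, 1 was higher and none lower. Summed over all 12 they took 357 CPM on day 1 and 438 CPM on day 2, a log2 ratio of 0.30 (0.18 to 0.41). Without barcodes found in another library this ratio was 0.37 (0.24 to 0.49). The helicase subunits Mcm3 (57.5 and 51.7 CPM), Mcm7 (43.6 and 45.8 CPM) and Mcm6 (41.9 and 42.5 CPM) had log2 ratios of -0.15, 0.07 and 0.02, each with an interval that included 0. Rrm2, the ribonucleotide reductase subunit that is limiting for dNTPs, was the 1 called higher, at 11.6 CPM on day 1 and 40.9 CPM on day 2 (log2 ratio 1.81, 1.27 to 2.41).

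The lists of mitotic genes, which hold the core genes too, were mostly higher on day 2. A list member can reach the UMI minimum through day 2 alone, so the sum over all members is given beside the counts of these lists. Of 27 cyclins, kinases and regulators of mitotic entry, 13 were compared, 9 were higher and none lower, and the summed log2 ratio was 1.17 (1.06 to 1.28). Ccna2, the cyclin of S and G2 phase, was at 7.92 CPM on day 1 and 36.6 on day 2 (2.18), Ccnb2, a B-type cyclin, at 8.26 and 33.3 CPM (1.99), and Cks1b, a Cdk-binding subunit, at 35.0 and 92.0 CPM (1.39). Plk4, which starts centriole duplication, was at 40.3 and 54.1 CPM and was not called. Of the 14 members below the minimum, 13 had ratios above 0 and 1 below. Without barcodes found in another library the ratio of Ccna2 was 2.89, and the summed ratios were 1.39 for mitotic entry, 1.63 for condensation and cohesion, 1.26 for the kinetochore and 1.84 for the spindle, all larger than with them.

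Chromosome condensation and cohesion genes were 17, of which 13 were compared and 10 higher (summed log2 ratio 1.31, 1.22 to 1.40). The condensin subunits Smc2 and Smc4 went from 53.5 to 132 CPM and from 35.99 to 95.3 CPM. Pttg1, the securin that holds separase, was at 73.3 and 93.0 CPM with a ratio of 0.34 and was not called. Of 29 centromere and kinetochore genes, 12 were compared and 8 were higher, with a summed ratio of 1.04 (0.95 to 1.13). Casc5, the kinetochore scaffold also named Knl1, went from 23.4 to 86.7 CPM (1.88), and Cenpf and Cenpa rose by 1.89 and 1.75. Bub3 (117 and 133 CPM) and Zwint (41.3 and 39.2 CPM), with ratios of 0.18 and -0.07, were not called. Of 36 spindle and cytokinesis genes, 23 were compared and 21 were higher, and the summed ratio of 1.43 (1.35 to 1.52) was the highest of the 4 mitotic lists. Cdca8 and Birc5, partners of Aurora B in the chromosomal passenger complex, went from 10.2 to 53.4 CPM and from 20.5 to 68.9 CPM, and Stmn1, a tubulin-binding protein, from 158 to 353 CPM.

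The anaphase-promoting complex is the ubiquitin ligase that ends mitosis. All 17 genes of that list were compared, 3 were higher and none lower, against 3.3% of all genes higher. The median log2 ratio was 0.05 and the summed one 0.25 (0.18 to 0.32). The 3 were Ube2c, its ubiquitin-conjugating enzyme (1.45), Fbxo5, its inhibitor (1.11), and Cdc20, its mitotic activator, at 5.28 and 32.0 CPM (2.56, and 3.38 without barcodes found in another library), which was named after its value was seen. The subunits Anapc16 (101 and 104 CPM) and Anapc13 (83.5 and 96.6 CPM) were not called.

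Histone and chromatin genes rose as well. Of 30 clustered histone genes, 10 were compared and 7 were higher, none lower, with a summed log2 ratio of 1.25 (1.17 to 1.34). Hist1h2ap went from 105 to 307 CPM, Hist1h1e from 106 to 238 CPM and Hist1h1b from 49.9 to 172 CPM. Without barcodes found in another library the summed ratio was 1.71 (1.61 to 1.81), and those of Hist1h2ap and Hist1h1b were 2.28 and 2.80, against 1.55 and 1.79. Clustered histone mRNAs mostly lack a poly(A) tail and have near-identical copies, so the split of reads between single genes is uncertain. Of 19 genes of chromatin assembly and DNA methylation, 17 were compared and 10 were higher, with a summed log2 ratio of 0.62 (0.57 to 0.67). The histone variant genes H2afz and H2afx went from 448 to 756 CPM and from 29.1 to 74.8 CPM, and Hmgb2, a chromatin protein of dividing cells, from 138 to 285 CPM. Dnmt1, the maintenance DNA methyltransferase, was at 48.5 and 51.7 CPM and was not called.

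Genes of the earlier steps moved less. Of 46 DNA replication genes, 31 were compared, 5 were higher and none lower, against 3.3% of all genes higher and 5.8% lower. The summed log2 ratio was 0.26 (0.19 to 0.32). Lig1, the ligase that joins Okazaki fragments, went from 43.9 to 73.2 CPM (0.73), whereas Pcna, the sliding clamp, was at 57.8 and 82.4 CPM (0.51) and was not called. Without barcodes found in another library the ratio of Pcna was 0.72 (0.41 to 1.03). None of the 8 RB and E2F genes compared was called in either direction, E2f1 having 20.1 and 25.7 CPM. Of 9 G1 cyclins and kinases, 1 was higher and 1 lower: Ccne2, a cyclin of S phase entry, had a ratio of 1.14, and Ccnh, a subunit of the Cdk-activating kinase, one of -0.65. Ccnd1, the cyclin of G1 progression, was at 231 and 213 CPM and was not called. Nucleotide supply had 4 of 11 higher, of 14 listed, and recombination and fork repair had 3 of 9 higher, of 29 listed, with none lower in either. Summed over all members their log2 ratios were 0.11 (0.01 to 0.20) and 0.30 (0.20 to 0.41). The 20 CDK inhibitors and p53 targets had a summed log2 ratio of -0.17 (-0.23 to -0.11). Among the 11 compared, the inhibitors Cdkn2c (11.2 and 36.6 CPM, 1.69) and Cdkn2d (23.1 and 48.5 CPM, 1.06) were higher. Gadd45g, a growth arrest gene, was lower (53.2 and 19.8 CPM, -1.42), and Cdkn1a, the p21 inhibitor, was at 302 and 262 CPM and was not called.

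The mitotic lists were then summed without the cells of the G2/M or S class, counted before thinning, which left 774 cells on day 1 and 508 on day 2. This removes by its construction the cells with most of these transcripts. In these cells 1.87% of genes were called higher and 5.93% lower. The summed log2 ratio went from 1.17 to 0.24 for mitotic entry, from 1.31 to 0.36 for condensation and cohesion, from 1.04 to 0.05 for the kinetochore and from 1.25 to 0.02 for clustered histones. The spindle list went from 1.43 to 0.71 (0.54 to 0.88), and the core G2/M genes from 1.89 to 1.51 (1.19 to 1.85), at 43.7 CPM on day 1 and 125 CPM on day 2, so that both remained above 0 in cells with fewer than 3 core genes. Of the 115 genes that were higher in all cells and still had 100 UMIs, 76 were also higher in these cells (66.1%), and of the 310 lower ones 228 were also lower (73.5%). Inside the G2/M class, whose core genes define it, the mitotic lists had ratios near 0. Leaving out those core genes, the summed ratio of day 2 over day 1 class cells was -0.06 (-0.24 to 0.13) for mitotic entry, -0.06 (-0.21 to 0.09) for the kinetochore and -0.17 (-0.29 to -0.05) for the spindle. DNA replication genes had a ratio of -0.34 (-0.47 to -0.21) in the class. With only the 23 day 1 and 100 day 2 class cells whose barcode was in no other library, the ratios were -0.01 (-0.24 to 0.23) for mitotic entry, 0.13 (-0.06 to 0.33) for the kinetochore, -0.03 (-0.18 to 0.12) for the spindle and -0.46 (-0.61 to -0.30) for DNA replication.

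**Figure D4:**
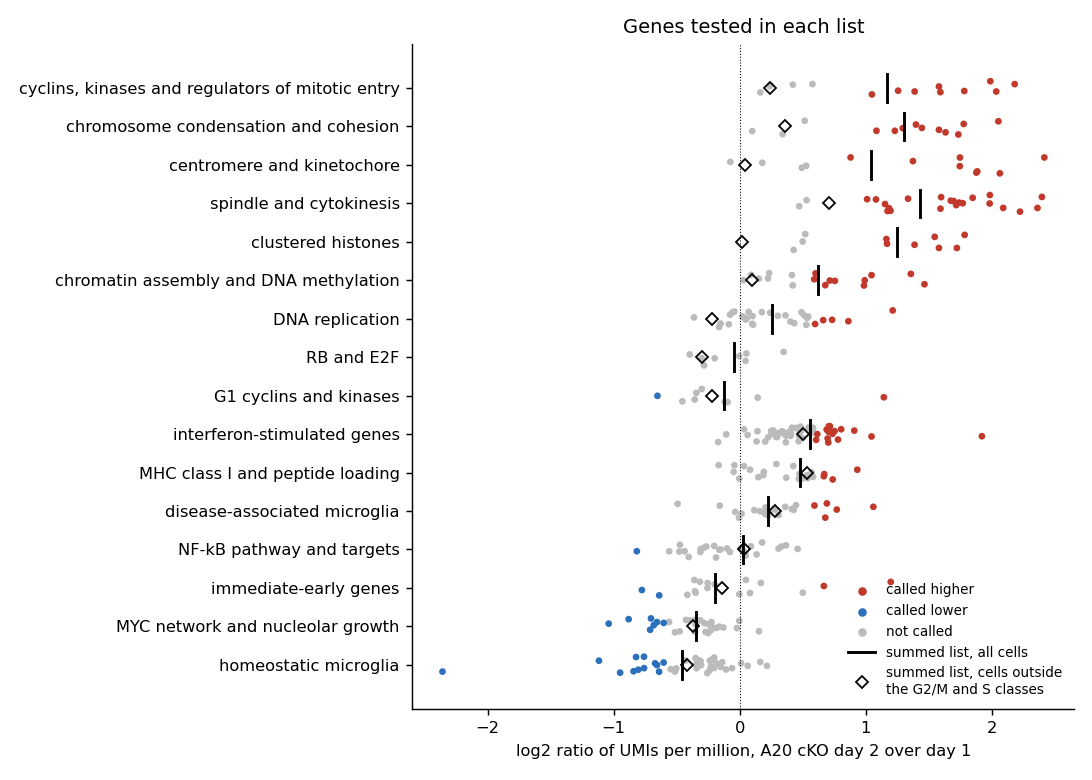
Log2 ratio of CPM, A20 cKO day 2 over day 1, for the genes compared in 16 lists; 1 point is 1 gene, coloured by its call. The black line is the ratio of the list's summed UMIs in all cells and the open diamond the same in cells outside the G2/M and S classes. The diamonds of the mitotic and histone lists lie nearer to 0 than the lines, whereas line and diamond lie close together for the interferon, MHC class I, MYC and homeostatic lists.

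Interferon-stimulated and antigen presentation genes rose in part. Of 56 interferon-stimulated genes, 54 were compared, 16 were higher and none lower, against 3.3% of all genes higher. Their median log2 ratio was 0.46, and the list's sum went from 8626 to 12727 CPM. Ifi27l2a went from 746 to 1402 CPM (0.91), Bst2, the antiviral membrane protein tetherin, from 730 to 1200 CPM (0.72), Ifi204, a DNA sensor, from 486 to 784 CPM (0.69) and Irf7, a transcription factor of the type I interferon response, from 352 to 537 CPM (0.61). The largest ratio was that of Ifi44, at 10.6 and 40.5 CPM (1.92). Isg15, a ubiquitin-like protein gene, was at 249 and 349 CPM, and its ratio of 0.48 was below the 1.5-fold limit. Ifi205, of the same family as Ifi204, had 35.5% of its day 1 UMIs in 1 barcode, and reads of such related genes can be shared.

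The same group was also higher in cells outside the cycling classes, where 16 of 53 genes were called higher, against 1.87% of all genes there. The summed ratio in these cells was 0.50 (0.48 to 0.53). In the G2/M class cells it was 0.37 (0.30 to 0.45), and 0.33 (0.24 to 0.42) in those whose barcode was in no other library. In the naive A20 cKO library the list's sum was 7626 CPM and on day 3 it was 13627 CPM. The control libraries had 2288 CPM when naive, 1557 CPM on day 1, 2058 CPM on day 2 and 8237 CPM on day 3. A20 cKO day 1 and day 2 lay above control day 1 and day 2. Control day 3, however, lay above the naive A20 cKO library and close to A20 cKO day 1, at 8626 CPM.

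For interferon-stimulated genes the promoter element shown is the interferon-stimulated response element (ISRE), searched on either strand as GAAA, any 2 bases and GAAA again, which 3.44% of all windows held. The share within the list is not given, because 43 of its 56 genes had a window, under the 80% needed. The windows of the called genes with an ISRE, 1 window and the largest ratios are those of Ifit3 (chr19:34583279-34583578, plus strand), Gbp2 (chr3:142620413-142620712, plus strand) and Bst2 (chr8:71537423-71537722, minus strand), written 5′ to 3′ with the ISRE in capitals.
Ifit3: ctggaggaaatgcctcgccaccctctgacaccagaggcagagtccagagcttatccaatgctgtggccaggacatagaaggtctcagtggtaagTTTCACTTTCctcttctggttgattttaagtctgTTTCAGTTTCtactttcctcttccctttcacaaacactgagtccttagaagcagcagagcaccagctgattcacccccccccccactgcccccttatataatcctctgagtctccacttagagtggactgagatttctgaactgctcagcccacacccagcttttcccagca
Gbp2: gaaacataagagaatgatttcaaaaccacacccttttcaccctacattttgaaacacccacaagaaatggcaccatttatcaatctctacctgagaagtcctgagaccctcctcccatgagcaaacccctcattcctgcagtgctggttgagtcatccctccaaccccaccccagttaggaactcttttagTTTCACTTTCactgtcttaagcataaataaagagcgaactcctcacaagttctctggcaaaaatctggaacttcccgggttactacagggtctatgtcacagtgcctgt
Bst2: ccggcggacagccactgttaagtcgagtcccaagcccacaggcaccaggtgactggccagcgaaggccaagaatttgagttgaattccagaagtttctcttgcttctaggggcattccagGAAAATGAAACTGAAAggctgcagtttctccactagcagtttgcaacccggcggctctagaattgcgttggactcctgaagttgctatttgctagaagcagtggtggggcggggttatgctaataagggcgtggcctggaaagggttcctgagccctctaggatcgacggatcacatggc
In Ifit3 and Gbp2 the element is read on the opposite strand, and in Bst2 2 copies overlap. Ifit3, an antiviral RNA-binding protein gene, went from 258 to 443 CPM, and Gbp2, a guanylate-binding protein gene, from 29.1 to 49.1 CPM.

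MHC class I molecules show peptides from inside the cell to T cells. All 23 genes of class I and peptide loading were compared, 4 were higher and none lower, against 3.3% of all genes higher. The median ratio was 0.43, and the sum was 16350 CPM on day 1 and 22771 CPM on day 2. H2-K1, a classical class I heavy chain, went from 1026 to 1713 CPM (0.74, 0.67 to 0.80), Tap1, the peptide transporter, from 115 to 183 CPM (0.67), and H2-Q7 and H2-Q6 by 0.93 and 0.67, the reads of which cannot be fully told apart because the genes are near-identical. B2m, the class I light chain, was at 7927 and 11198 CPM with a ratio of 0.50, under 1.5-fold, with an interval above 0 (0.47 to 0.52). None of the 7 MHC class II genes compared, of 10, was called.

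Genes of resting microglia went the other way. All 41 homeostatic genes were compared, 12 were lower and none higher, against 5.8% of all genes lower, and the median log2 ratio was -0.32. Fcrls, an Fc receptor-like gene used to mark microglia, had the lowest ratio of the genes called. It was at 597 CPM (570 to 626) on day 1 and 116 CPM (104 to 129) on day 2, 5.13-fold lower, and 51.8% of thinned cells had a UMI on day 1 and 18.2% on day 2. In the control libraries it was at 1454 and 1229 CPM. Cst3, the protease inhibitor cystatin C, went from 22305 to 12618 CPM (-0.82), P2ry12, the ADP receptor of resting microglia, from 1414 to 908 CPM (-0.64), Cx3cr1, the fractalkine receptor, from 1496 to 950 CPM (-0.66) and Gpr34, a lysophosphatidylserine receptor, from 561 to 313 CPM (-0.84). Tmem119 (1930 and 1697 CPM) and Csf1r (1430 and 1213 CPM) had ratios of -0.19 and -0.24 and were not called. With median-of-ratios size factors P2ry12 and Cx3cr1 also fell short of the call limit.

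The homeostatic list was lower outside the cycling classes too, with 10 of 40 called lower, against 5.93% of all genes there. Its summed ratio was -0.42 (-0.43 to -0.40) and the median of its genes -0.28. In the G2/M class cells the summed ratio was -0.28 (-0.32 to -0.24), or -0.35 (-0.39 to -0.30) without barcodes found in another library. Much of that sum was Cst3, at 15849 CPM on day 1 and 9893 CPM on day 2 (-0.68), where the whole list took 39544 and 32618 CPM. The same held in all cells. Without barcodes found in another library, Cst3 took 23197 and 12682 CPM there, of the list's 54067 and 38291 CPM. Cx3cr1 was at 1030 and 988 CPM in the class (-0.06, -0.30 to 0.18). In the class, Fcrls was at 458 CPM on day 1 and 69.5 on day 2 (-2.71, and -2.76 without those barcodes), and P2ry12 at 715 and 695 CPM (-0.05, -0.33 to 0.25). Of 29 genes of disease-associated microglia, with a summed log2 ratio of 0.23 (0.21 to 0.24), 23 were compared. Where 3.3% of all genes were higher, 5 of these were higher and none lower. They were Itgax, an integrin subunit (23.4 and 49.1 CPM, 1.06), Axl, a receptor for apoptotic cells (181 and 292 CPM, 0.69), Cybb, the phagocyte oxidase subunit (154 and 247 CPM, 0.68), Cd52, a surface glycoprotein (1231 and 1859 CPM, 0.59) and Cd300lf, an inhibitory receptor (91.5 and 156 CPM, 0.77). Trem2, a lipid receptor of that list, was at 1018 and 1015 CPM and was not called.

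Myc and a part of the nucleolar genes fell. Myc, a transcription factor of cell growth, was at 85.5 CPM (75.4 to 96.6) on day 1 and 41.5 CPM (34.6 to 49.4) on day 2, 2.06-fold lower, and in thinned cells 14.6% and 6.39% had a UMI of it. It was at 54.8 CPM in the naive and 38.6 CPM in the day 3 A20 cKO library, and at 96.5 and 43.4 CPM in control day 1 and day 2. Of the 32 genes of the MYC network and nucleolar growth, 29 were compared, 7 were lower and none higher, against 5.8% of all genes lower. The median log2 ratio was -0.35. Mybbp1a, a nucleolar protein that binds RNA polymerase I, went from 103 to 55.7 CPM (-0.88), Nolc1, a nucleolar scaffold, from 79.9 to 48.8 CPM (-0.71), Ddx21, a helicase of ribosomal RNA processing, from 224 to 140 CPM (-0.68), and Nop58, a core protein of box C/D small nucleolar particles, from 119 to 78.4 CPM (-0.60). Npm1, nucleophosmin, was at 424 and 418 CPM and was not called. In cells outside the cycling classes 7 of 27 were lower, against 5.93% of all genes there, and the median was again -0.35. In the G2/M class cells the summed ratio was -0.26 (-0.37 to -0.13), or -0.15 (-0.305 to 0.0033) without barcodes found in another library.

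Cytokines and chemokines had no common direction. Cxcl13, a chemokine that attracts B cells, went from 316 CPM (296 to 337) to 871 CPM (839 to 905), and 9.64% of thinned cells had a UMI on day 1 and 23.96% on day 2. In control day 1 and day 2 it was at 0.14 and 0 CPM. In the G2/M class 4 of 33 class cells had a Cxcl13 UMI on day 1 and 44 of 106 on day 2, with 120 and 1718 CPM (log2 ratio 3.804, 3.22 to 4.53), and cells outside the classes had 288 and 513 CPM (0.83, 0.70 to 0.97). Class cells were deeper on day 2, and a single cell held 42.9% of the class UMIs of Cxcl13 on day 1. Without barcodes found in another library 1 of 23 and 43 of 100 class cells had a UMI of it, with 67.6 and 1762 CPM. Ccl12, a ligand of Ccr2, was lower, at 5152 CPM on day 1 and 2751 CPM on day 2 (-0.91, -0.94 to -0.87). Ccl5 (2001 and 2756 CPM), Ccl2 (562 and 477 CPM) and Ccl4 (425 and 446 CPM) had ratios of 0.46, -0.24 and 0.07 and were not called, as were 10 of the 12 chemokines compared, of 20.

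Il12b, the shared subunit of interleukins 12 and 23, went from 39.0 CPM (32.2 to 46.7) to 140 CPM (127 to 154), but 1 barcode held 44.8% of its UMIs on day 2 and 28.0% on day 1. Without the leading barcode of each library it was at 28.1 and 77.7 CPM (1.46, 1.10 to 1.84), and without the barcodes found in another library its ratio was 2.30. It was found in 1.93% of thinned cells on day 1 and 4.31% on day 2, and in the G2/M class in 11 of 106 cells on day 2 and 0 of 33 on day 1. Il1a, interleukin 1 alpha, was lower, at 91.8 and 58.3 CPM (-0.65). Il1rn, the interleukin 1 receptor antagonist, was called lower at 46.6 and 14.5 CPM (-1.67), but 75.2% of its day 1 UMIs were in 1 barcode. Without the leading barcodes its ratio was -0.18 (-0.93 to 0.56), so that the call was lost without those cells. Tnf was at 65.7 and 56.0 CPM and was not called.

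NF-kB is the transcription factor whose activation A20 limits. Of 32 genes of its pathway and targets 27 were compared, none was higher and 1 was lower, where 3.3% and 5.8% of all genes were called, and the sum was 2581 CPM on day 1 and 2625 CPM on day 2. Nfkbia, the inhibitor that NF-kB itself induces, was at 393 and 495 CPM (0.33) and was not called. The 1 lower gene was Cd40, a costimulatory receptor (29.7 and 16.8 CPM, -0.82), which had 26.7% of its day 1 UMIs in 1 barcode and a ratio of -0.49 without the leading barcodes. Of 17 immediate-early genes compared, of 32, 2 were higher and 2 lower. Dusp1, a MAP kinase phosphatase, was at 16.8 and 38.9 CPM (1.20, 0.72 to 1.71) and Ier2 at 78.6 and 50.4 CPM (-0.64), whereas Junb (484 and 406 CPM) and Jun (177 and 184 CPM) were not called. The heat shock, glycolysis, apoptosis and SLAM family lists, with 10, 16, 16 and 11 genes compared, had none called in either direction, and cholesterol genes had 1 of 15 higher.

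Markers of other cell types were present at low summed levels. The 13 lymphocyte markers had 12 at 0 UMIs in both libraries, and the monocyte markers Ccr2 and Ly6c2 (named after their values were seen) were at 2.31 and 0.66 CPM on day 1 and at 0.33 and 0 CPM on day 2. Plac8, which monocytes express strongly, nevertheless went from 29.7 to 83.4 CPM (1.48, 1.14 to 1.85) and was in 2.89% and 9.11% of thinned cells. The summed monocyte and neutrophil list was at 79.9 and 126 CPM, and Plac8 was the 1 of its 11 members that reached the UMI minimum. The list was at 80.4 and 123 CPM without barcodes found in another library, with Plac8 at 29.7 and 80.02 CPM. Other members were present there too, also named after their values were seen. S100a8 was at 18.7 and 15.2 CPM, S100a9 at 13.95 and 10.8, Camp at 11.02 and 7.77 and Retnlg at 2.94 and 6.08. The interval of each of their ratios included 0. Oligodendrocyte markers summed to 742 and 732 CPM, of which Mbp took 119 and 134 CPM, astrocyte markers to 322 and 349 CPM, neuron markers to 18.2 and 14.2 CPM and border macrophage markers to 37.97 and 45.5 CPM. Endothelial and mural markers summed to 66.7 and 61.6 CPM, with Pecam1 lower (-0.75), and choroid and red cell markers to 397 and 389 CPM, nearly all Ttr, of which 1 barcode held 90.5% and 95.8%. Without barcodes found in another library the choroid list was at 40.4 and 15.9 CPM. Their part in the other differences was not tested, and a lower share of one cell type cannot be told apart from less of its RNA per cell.

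The remaining genes at both ends of the ranking had other functions. Csmd3, a large membrane protein gene, was at 238 and 85.7 CPM (-1.47), Lrba, a vesicle trafficking gene, at 97.4 and 44.2 CPM (-1.14), Slc2a5, a fructose transporter, at 71.7 and 33.0 CPM (-1.12) and Ecscr at 194 and 99.9 CPM (-0.96). Numb, an inhibitor of Notch signaling, was at 237 and 127 CPM (-0.90), Nrros, a partner of latent TGF-beta in microglia, at 192 and 104 CPM (-0.89), Nfam1, a receptor with an activating motif, at 90.8 and 48.5 CPM (-0.90) and Eef1e1, of the tRNA synthetase complex, at 70.7 and 36.9 CPM (-0.93). For each of these 8 genes no barcode held more than 4% of the UMIs in either library.

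**Figure D5:**
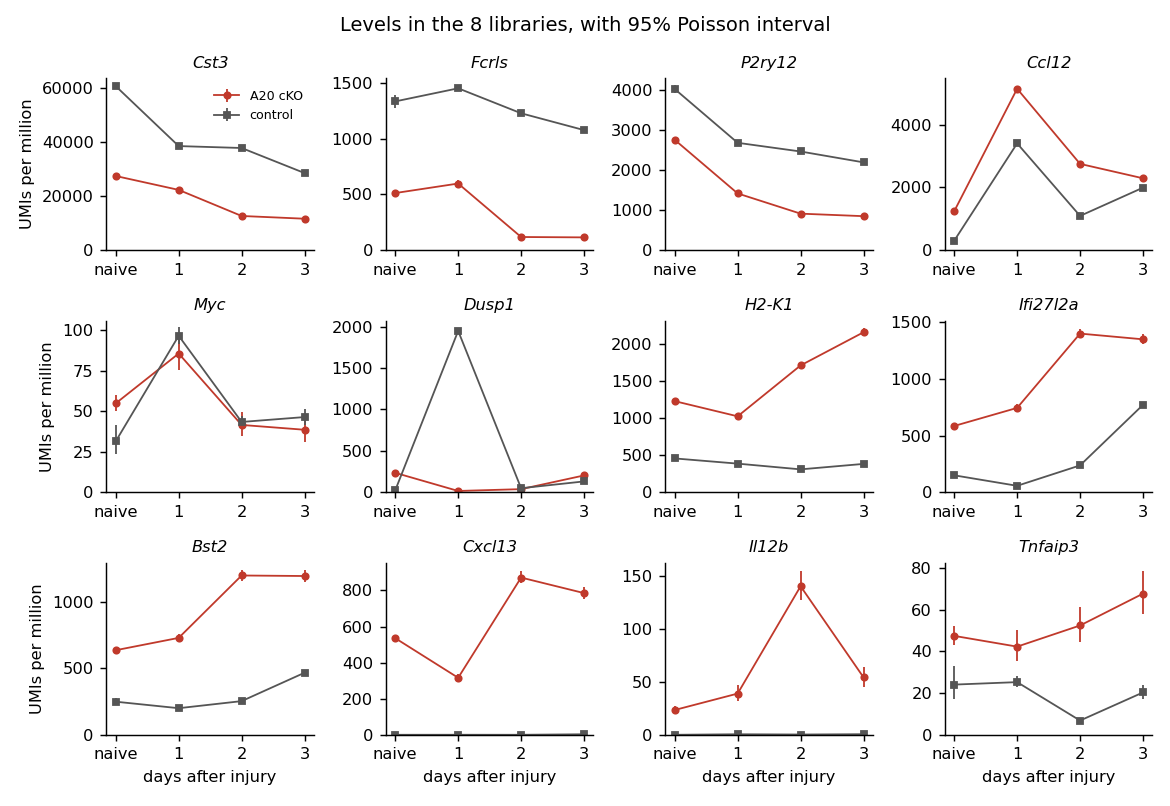
CPM (vertical axis) of 12 genes in the naive, day 1, day 2 and day 3 libraries of A20 cKO (red circles) and control (grey squares) animals; bars are 95% Poisson intervals and each point is 1 library. Between day 1 and day 2 of A20 cKO, Fcrls, Cst3, Ccl12 and Myc are lower and H2-K1, Ifi27l2a, Bst2, Cxcl13 and Il12b higher, and the day 3 levels of Fcrls (113) and Cxcl13 (785) lie near those of day 2 (116 and 871).

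Set beside the other A20 cKO libraries, day 2 was an extreme for some lists and not for others. The summed core G2/M genes were at 304 CPM in the naive library, 358 CPM on day 1, 1323 CPM on day 2 and 719 CPM on day 3, highest on day 2. The homeostatic list was at 66736, 52400, 38120 and 39549 CPM, and MHC class I at 16544, 16350, 22771 and 25315 CPM, both with day 3 close to or beyond day 2. Much of the fall of the homeostatic sum from day 1 to day 2 was that of Cst3. The MYC list was at 2572, 3836, 3025 and 2765 CPM, highest on day 1. Clustered histones were at 918 CPM in the naive library and 528 CPM on day 1, so that the day 2 level of 1257 CPM was 2.38-fold above day 1.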

How the data were processed

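Each library was made by the authors with a 10x Chromium 3′ kit, and the deposited values are raw UMI counts per gene and barcode. The submitters' processing notes name Cell Ranger 2.1.1 and mm10. From these, counts were summed over kept barcodes per library and scaled to CPM (Python 3.11.15, numpy 2.4.6, scipy 1.17.1, pandas 2.3.3). CPM intervals are exact Poisson, ratio intervals exact conditional binomial. Log2 ratios used a pseudocount of 0.5 UMIs, and genes needed 100 UMIs over both libraries. edgeR 4.0.16 (R 4.3.3) gave only the TMM factors of an alternative. No doublet caller was run, and the doublet gate of the sort does not cover cells captured together in a droplet. The scripts were tested on simulated data. Of the listed genes 821 matched and 7 did not (Cxcl11, Mx2, Ifi207, Ifi211, Ifi213, Clec7a and Trbc2). Coordinates are GENCODE gene spans on GRCm38.

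The members and lists were chosen with earlier results of these data known. Genes were named where they were list members with a mean of at least 20 CPM, among the members of highest level or largest ratio of their list, among the 12 highest or 12 lowest ratios at a mean of at least 50 CPM, or Tnfaip3, Myc, Mki67 and Cdk1. Outside that rule, Mcm6, Mcm7, Nop58, Isg15, Ifi205, P2ry12, Cx3cr1, Cdc20, Ccr2, Ly6c2, S100a8, S100a9, Camp, Retnlg, Ly6g and the ribosomal-RNA-like genes were named after their values were seen. Some genes that the rule names are not reported here.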

Additional observations from a re-analysis of the deposited data

Results flagged for a closer look

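Dusp1, a MAP kinase phosphatase and immediate-early gene, moved in opposite directions in the 2 genotypes. In A20 cKO it was at 16.8 CPM on day 1 and 38.9 CPM on day 2, a log2 ratio of 1.20, and in the control libraries it was at 1948 and 50.1 CPM, a log2 ratio of -5.28. With 1 library in each group the difference between genotypes was not tested. At 50.1 and 38.9 CPM the day 2 libraries of both genotypes lay close together, and control day 1 stood far above the other 3. The control fall was shared by the immediate-early list, which summed to 32015 CPM in control day 1 and 3822 CPM in control day 2. Of its 25 genes compared there, 23 were lower, against 4.44% of all genes. In A20 cKO the list was at 2732 and 2380 CPM.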

How the results depend on the processing

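No paired analysis was possible because each group is 1 library, and for the same reason no replicate could be left out. The difference in G2/M class share kept its direction under all 11 alternatives, between 7.82 and 12.4 points. The S class difference was 1.38 points (0.28 to 2.78) when cells were thinned to 1000 UMIs, -6.31 (-9.36 to -3.16) with at least 2 core genes and 0.87 with at least 4. Genes called higher and lower numbered 110 and 178 at a minimum of 200 UMIs, 510 and 784 with every gene that had a UMI, and 90 and 32 at 2-fold. Without class cells 116 were higher, and with median-of-ratios or TMM factors 250 were lower. Without class cells, which are by construction those with most mitotic transcripts, the median log2 ratio was 0.14 for mitotic entry, 0.16 for condensation, -0.42 for the kinetochore, 0.040 for the spindle, 0.011 for chromatin assembly and 0.021 for histones, and the ratios of Hist1h2ap (-0.79), Hist1h2ab (-1.57), Esco2 (-0.23), Spc25 (-0.13), Lig1 (-0.11), Clspn (-0.25), Rrm1 (-0.066), Atad2 (-0.32) and Ezh2 (-0.082) turned. Without barcodes found in another library the medians were 1.82 for condensation, 2.19 for the kinetochore, 1.86 for histones and 2.57 for the core G2/M genes. The mitotic entry median was 0.84 at 200 UMIs, that of recombination 0.62 at 50 UMIs and 0.69 with every gene, that of chemokines 0.033 with every gene, and that of disease-associated microglia 0.33 with either scaling. Il1rn was at 0.33 without cells above 3 times the median UMIs. Of 4293 values of single genes, 3992 moved by less than their counting interval, 291 moved further and 10 turned. Leaving out each gene's leading barcode, and leaving shared barcodes out of the class cells and list sums, were chosen after seeing the data. Where no construction is named, the cause was not tested.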
